A study of Mus musculus with 9 samples.

Results

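Neutrophil granule and marker genes were followed in livers from KKAy mice, a strain that becomes obese and diabetic and serves as a model of type 2 diabetes. The set held 10 genes chosen by name: S100a8, S100a9, Ngp, Camp, Ltf, Mpo, Elane, Mmp8, Retnlg and Cxcr2. All probe sets that the platform annotation assigns to 1 of these genes alone were taken. This gave 9 probe sets for 9 of the 10 genes, 1 each, among 18193 genes and 45037 probe sets measured. Probe sets with several gene symbols were not used for any gene. Retnlg, a resistin-like protein of neutrophils, had no probe set with its symbol alone and has no value below. Liver RNA was hybridised to 9 one-colour Affymetrix arrays in 3 groups of 3 (BI, Insulin and KKAy). The BI mice were KKAy mice given modified insulin at a total of 40 µg/mL, of which 11% was biomineralized in place. The Insulin mice were KKAy mice given ordinary insulin at 40 µg/mL. The KKAy mice carry the treatment label "none" and are called untreated here. The protocol describes control mice injected with culture medium (DMEM), and whether those are these mice is not stated. Injections were intraperitoneal, of 100 µL, and all mice were 8 weeks old and ate a chow with 34% fat. The growth protocol given for BI replicate 2 describes rats; the array was kept as labelled. Whether an array holds RNA of 1 animal or of several is not stated, so p-values reflect just the spread among these samples, and that spread may be technical. The untreated arrays serve as the common comparison for both insulin groups.

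Neutrophils are short-lived white blood cells that leave the bone marrow fully armed. Most of their proteins are made there during maturation: azurophil granule proteins such as Mpo and Elane first, in promyelocytes, then specific granule proteins such as Ltf, Camp and Ngp, and later Mmp8. Circulating neutrophils keep high levels of S100a8 and S100a9 transcripts and carry the chemokine receptor Cxcr2, while the transcripts of early granule proteins are largely gone. In liver, neutrophils lie mainly in the sinusoids, and RNA of whole liver is mostly that of hepatocytes. S100a8 and S100a9 are also expressed by monocytes. In bulk tissue, fewer cells of a type and less RNA per cell cannot be told apart.

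All levels are log2 signals as the authors scaled them, and array medians lay between 6.12 and 6.30. As a measure of RNA integrity, the Gapdh signal at the 3′ end exceeded that at the 5′ end by 0.26 to 0.42 on BI arrays, by 0.48 to 0.55 on Insulin arrays and by 0.28 to 0.65 on untreated arrays (0.31 on untreated replicate 2). Genes highest of the 9 arrays on a given array made up 7.67% (BI replicate 1) to 13.2% (untreated replicate 2) of all genes. Genes lowest on a given array made up 15.7% on untreated replicate 2. On the other arrays that share was 8.47% (Insulin replicate 2) to 12.7% (untreated replicate 1). Untreated replicate 2 stood apart in the number of genes with a level over 8 that exceeded the next array by over 1 log2 unit. It had 30 such genes, against 0 to 12 on the other 8 arrays. Results that rest on this array are therefore given with and without it. No member passed a test between groups. This array held the highest value for 6 of the 9 genes measured. It led the next array by 1.13 log2 units for S100a8 and 1.54 for S100a9. For Ngp, Elane, Mmp8 and Camp the lead was 0.25 to 0.78. Ltf, Mpo and Cxcr2 were highest on other arrays.

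Each gene was set against the array medians to check the label. Only S100a8 and S100a9 lay above the lowest array median of 6.12 on all 9 arrays. Ngp was below it on 1 array, Elane on 2, Ltf on 5, Mmp8 on 6, Mpo and Camp on 8 each, and Cxcr2 on all 9. The files used here hold no background measure, so a low value cannot be called absent or present.

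S100a8 and S100a9 form calprotectin, a calcium- and zinc-binding dimer that makes up much of the neutrophil cytosol. They are neighbouring genes on chromosome 3. Their promoter windows are shown with those of Ngp and Camp, because these 4 genes come from the cytosol and from the specific granules and all had their highest value on the same array. Each window is 300 bases of RefSeq sequence on build GRCm38.p6, from 250 bases before the annotated start to 50 bases after it, written 5′ to 3′ on the gene's strand. Capitals mark matches, on either strand, to a C/EBP motif (TTNNGNAA) or to PU.1 motifs (GAGGAAG or AGAGGAA, which share 6 letters and can overlap, but match at separate sites in the S100a8 window), factors of myeloid cells. The windows lie at chr3:90668821-90669120 (S100a8, plus strand), chr3:90695672-90695971 (S100a9, minus strand), chr9:110419558-110419857 (Ngp, plus strand) and chr9:109849407-109849706 (Camp, minus strand).
S100a8: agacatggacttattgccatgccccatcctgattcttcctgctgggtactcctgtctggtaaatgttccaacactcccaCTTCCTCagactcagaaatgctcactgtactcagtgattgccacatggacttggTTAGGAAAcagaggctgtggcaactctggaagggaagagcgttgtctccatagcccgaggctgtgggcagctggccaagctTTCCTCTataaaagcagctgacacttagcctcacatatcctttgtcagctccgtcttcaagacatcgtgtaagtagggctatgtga
S100a9: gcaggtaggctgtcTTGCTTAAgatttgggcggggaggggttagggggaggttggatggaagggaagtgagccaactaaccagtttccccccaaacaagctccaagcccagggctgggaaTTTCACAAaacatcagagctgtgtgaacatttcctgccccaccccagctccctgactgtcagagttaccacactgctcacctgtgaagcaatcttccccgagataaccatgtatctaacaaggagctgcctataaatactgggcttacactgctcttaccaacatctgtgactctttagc
Ngp: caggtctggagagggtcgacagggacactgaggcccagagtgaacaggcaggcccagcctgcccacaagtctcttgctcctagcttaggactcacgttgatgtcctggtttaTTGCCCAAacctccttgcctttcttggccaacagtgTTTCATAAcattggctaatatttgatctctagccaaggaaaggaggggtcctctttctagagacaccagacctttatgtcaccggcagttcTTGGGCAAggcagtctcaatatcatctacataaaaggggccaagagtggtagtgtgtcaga
Camp: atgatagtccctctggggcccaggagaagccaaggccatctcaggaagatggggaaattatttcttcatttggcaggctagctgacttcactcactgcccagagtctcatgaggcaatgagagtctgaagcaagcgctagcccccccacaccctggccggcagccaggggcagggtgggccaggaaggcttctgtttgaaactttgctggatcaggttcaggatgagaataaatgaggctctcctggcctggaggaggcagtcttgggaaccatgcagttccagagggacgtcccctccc

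The S100a8 window holds 1 C/EBP match that begins 117 bases before the start and 1 match to each PU.1 motif. The S100a9 window holds 2 C/EBP matches, the Ngp window 3, and the Camp window holds none of these letters. Over all 10 genes, a C/EBP match was in 6 windows (S100a8, S100a9, Mmp8, Ngp, Ltf and Retnlg), and 40.7% of all 32851 windows of the same length hold one. GAGGAAG was in 4 of 10 windows (13.6% of all windows) and AGAGGAA in 3 of 10 (10.4%). AAATCA, the core motif of the repressor GFI1, was in 2 of 10, those of Mmp8 and Ltf (14.0% of all windows). A match is a stretch of letters and not a measured binding site.

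S100a8 had levels of 10.29, 10.83 and 9.24 on the BI arrays, 9.64, 10.72 and 11.61 on the Insulin arrays, and 9.97, 12.74 and 11.25 on the untreated arrays (replicates 1, 2 and 3). The groups overlapped, untreated replicate 2 was the highest of all and BI replicate 3 the lowest. The highest array exceeded the next, Insulin replicate 3, by 1.13 log2 units (2.19-fold), and the lowest by 11.4-fold. Group means were 10.12 ± 0.81 for BI, 10.66 ± 0.98 for Insulin and 11.32 ± 1.39 for untreated mice (SD, n = 3 each), so the spread inside the untreated group was wider than any gap between means.

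S100a9 stood at 8.92, 9.52 and 8.13 on the BI arrays, 8.85, 9.29 and 9.74 on the Insulin arrays, and 8.71, 11.29 and 8.39 on the untreated arrays. Untreated replicate 2 was again far above the rest, while the other 2 untreated arrays were among the lowest 3 of the 9. Its gap to the next array, again Insulin replicate 3, was 1.54 log2 units (2.91-fold), and BI replicate 3 was again the lowest. Within the untreated group, replicate 2 exceeded the mean of replicates 1 and 3 by 6.68-fold for S100a9 and by 4.38-fold for S100a8 (ratios of 2 to the log2 difference). Both chains of calprotectin therefore shared their highest 2 arrays and their lowest one. They differed on untreated replicate 3, where S100a8 ranked 3 of 9 from the top and S100a9 ranked 8.

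The spread of the pair was wide for genes of their brightness. S100a8 had a range of 3.51 log2 units over the 9 arrays. Of the 1534 genes with a mean level within 0.5 of it, S100a8 included, 1 had a range that large (0.0652%), which was S100a8 itself. S100a9 had a range of 3.15, which 9 of 1933 genes of like level reached (0.466%). The median range was 0.53 for genes with a mean level of 10 to 11 and 0.61 for those of 9 to 10. Both ranges of the pair include untreated replicate 2, their highest array. Without it S100a8 lay between 9.24 and 11.61 and S100a9 between 8.13 and 9.74. These narrower spans were not ranked against other genes.

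**Figure D1:**
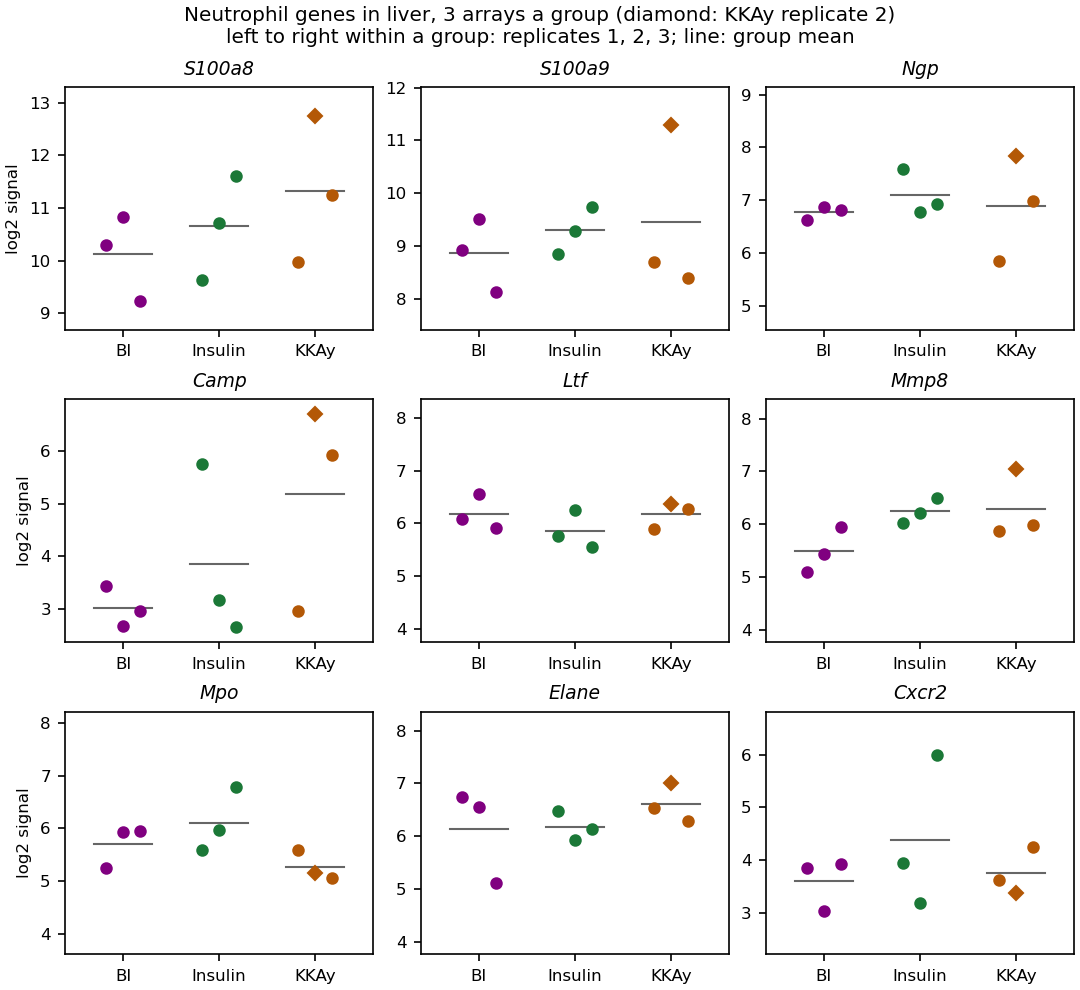
Log2 signal of the 9 neutrophil genes measured (1 panel each), with the groups along the horizontal axis, 1 point per array and a bar at each group mean; the value of untreated (KKAy) replicate 2 is drawn as a diamond. The diamond is the highest point for S100a8 (12.74), S100a9 (11.29), Ngp (7.84), Camp (6.69), Elane (7.01) and Mmp8 (7.04).

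Among the specific granule genes, Ngp, the neutrophilic granule protein of the cystatin superfamily, had 6.63, 6.86 and 6.81 on BI arrays, 7.59, 6.77 and 6.93 on Insulin arrays, and 5.84, 7.84 and 6.99 on untreated arrays. Untreated mice gave both the highest and the lowest array, and the BI arrays lay within 0.23 of each other. The highest value exceeded the next, on Insulin replicate 1, by 0.25 log2 units (1.19-fold). A range of 2.01 was reached by 10.8% of genes of like level.

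Camp, which encodes the precursor of the cathelicidin antimicrobial peptide, had 3.44, 2.68 and 2.96 on BI arrays, 5.75, 3.18 and 2.66 on Insulin arrays, and 2.96, 6.69 and 5.92 on untreated arrays. It was high on 3 arrays, untreated replicates 2 and 3 and Insulin replicate 1, and low on the other 6, including all 3 BI arrays. Of these 9 values, 8 lay below the lowest array median. A range of 4.04 was reached by 33.7% of genes of like level, and dimmer genes varied more throughout, with a median range of 3.40 at mean levels of 4 to 5.

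Ltf, which encodes the iron-binding lactoferrin, had 6.08, 6.56 and 5.91 on BI arrays, 5.76, 6.26 and 5.55 on Insulin arrays, and 5.89, 6.37 and 6.28 on untreated arrays. It was the steadiest of the 9, with a range of 1.01 that 88.9% of genes of like level reached. Its highest array was BI replicate 2, with untreated replicate 2 next, 0.19 lower.

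Mmp8, the neutrophil collagenase, had 5.09, 5.44 and 5.95 on BI arrays, 6.03, 6.22 and 6.50 on Insulin arrays, and 5.86, 7.04 and 5.98 on untreated arrays. All 3 BI arrays were below all 3 Insulin arrays. BI and untreated arrays overlapped by a little, BI replicate 3 standing above untreated replicate 1. Untreated replicate 2 exceeded the next array by 0.54.

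The azurophil granule genes differed in their highest array. Mpo, the myeloperoxidase that makes hypochlorous acid, had 5.25, 5.94 and 5.94 on BI arrays, 5.58, 5.96 and 6.77 on Insulin arrays, and 5.59, 5.14 and 5.05 on untreated arrays. Insulin replicate 3 was highest, and untreated replicate 2, the highest array for 6 of the 9 genes, ranked 8 of 9. Elane, the serine protease neutrophil elastase, had 6.75, 6.56 and 5.12 on BI arrays, 6.48, 5.94 and 6.13 on Insulin arrays, and 6.54, 7.01 and 6.29 on untreated arrays. Its groups overlapped, with untreated replicate 2 highest by 0.26 and BI replicate 3 lowest by far. Elane lies next to Prtn3, the gene of proteinase 3, on chromosome 10.

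Cxcr2, the receptor through which neutrophils follow the chemokines Cxcl1, Cxcl2 and Cxcl5, had 3.84, 3.04 and 3.94 on BI arrays, 3.95, 3.19 and 5.997 on Insulin arrays, and 3.62, 3.38 and 4.25 on untreated arrays. A single array was high, Insulin replicate 3, at 1.75 log2 units (3.36-fold) above the next. The other 8 lay between 3.04 and 4.25. At this low level 83.0% of genes of like level had a range of at least 2.96.

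Set side by side, untreated replicate 2 held the highest value for 6 of the 9 genes measured (S100a8, S100a9, Ngp, Camp, Elane and Mmp8), where it did so for 13.2% of all 18193 genes. Insulin replicate 3 was highest for 2 of the 9, Mpo and Cxcr2 (12.4% of all genes), and BI replicate 2 for 1, Ltf (9.98%). The lowest values were on BI replicate 3 for S100a8, S100a9 and Elane, on Insulin replicate 3 for Camp and Ltf, and on 1 array each for the rest. The linear signals of the 9 genes summed to 1237 to 2975 on BI arrays, 1780 to 4489 on Insulin arrays and 1758 to 10070 on untreated arrays, and 3224 was the higher sum of the other 2 untreated arrays.

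**Figure D2:**
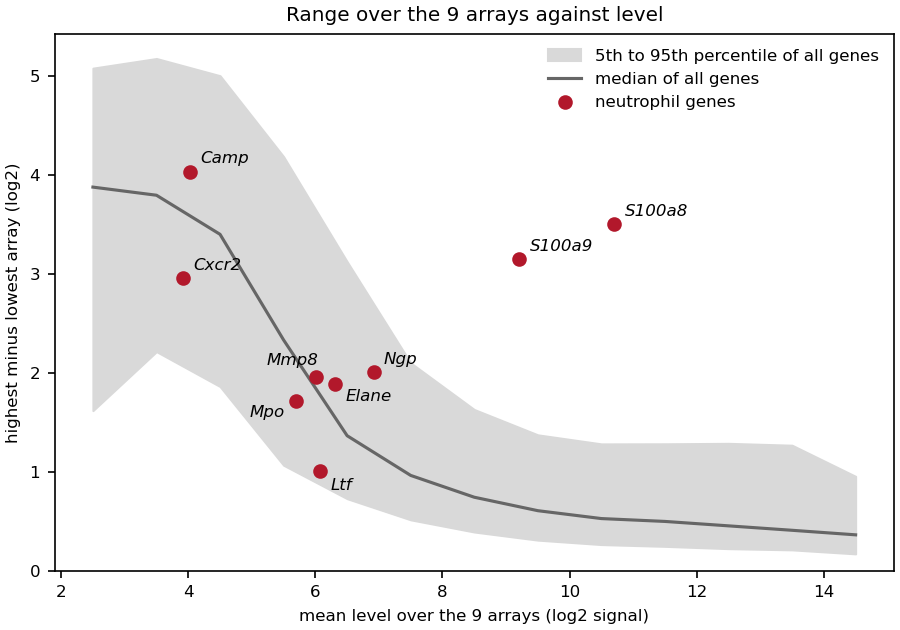
Range over the 9 arrays (log2, vertical axis) against mean level (log2, horizontal axis), with the median and the 5th to 95th percentiles of all genes by level and the 9 neutrophil genes as named points. S100a8 (3.51) and S100a9 (3.15) lie far above genes of their level, whose median ranges are 0.53 and 0.61, and the other 7 lie within the band of genes of their level. The ranges include untreated (KKAy) replicate 2, the highest array for both S100a8 and S100a9, and are not drawn without it.

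The comparison of BI with no treatment asks how liver expression differs after the modified insulin. limma called 5 of 45037 probe sets (0.0111%) at an adjusted p under 0.05, and 0 of the 9 neutrophil genes (adjusted p 0.999 each). The difference was above 0 for 2 of 9 genes (Mpo and Ltf) and below 0 for 7, with a median of -0.47, beside 50.1% of all genes above 0. Groups did not overlap for 0 of 9 genes, against 9.21% of all probe sets, and an unadjusted p under 0.05 was given to 0 of 9, against 4.48%. S100a8 differed by -1.20 ± 0.81 (SE, 95% interval -3.08 to 0.68) and S100a9 by -0.60 ± 0.77. The largest difference in size was that of Camp (-2.16 ± 1.11, interval -4.74 to 0.42), and the smallest p that of Mmp8 (-0.80 ± 0.37, unadjusted p 0.0648). With levels under 6 set to 6, Camp differed by -0.23, Mmp8 by -0.35 and S100a8 by -1.20, the largest in size at that setting. Without untreated replicate 2 the split was 4 above 0 and 5 below, with a median of -0.27, S100a8 differed by -0.49, S100a9 by 0.31, Ngp by 0.36 in place of -0.12, Mmp8 by -0.43 ± 0.30 and Camp by -1.41.

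The comparison of Insulin with no treatment asks the same of the ordinary hormone. Of 45037 probe sets limma called 0 (0%, with 0.171 as the smallest adjusted p), and of the 9 genes 0 (adjusted p 0.9999 each). An unadjusted p under 0.05 was given to 1 of 9 genes, Mpo, beside 4.47% of all probe sets. Mpo differed by 0.85 ± 0.36 (SE, interval 0.014 to 1.68, unadjusted p 0.0470), with 2 of 3 Insulin arrays above every untreated array. This difference was 0.51 ± 0.31 without Insulin replicate 3 and 0.26 ± 0.20 with a floor at 6. Differences were above 0 for Mpo, Ngp and Cxcr2 and below 0 for the other 6, with a median of -0.16, and no gene had groups that did not overlap, against 9.19% of all probe sets. S100a8 differed by -0.66 ± 0.81 and S100a9 by -0.16 ± 0.77. Without untreated replicate 2 the split turned to 6 above 0 and 3 below (median 0.33), and S100a8 differed by 0.048, S100a9 by 0.75 and Mmp8 by 0.33, in place of -0.045 for Mmp8. Without Insulin replicate 1, S100a9 differed by 0.058 and Mmp8 by 0.065.

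The comparison of BI with Insulin asks what the modification adds. Untreated arrays enter it only through the spread that all 9 arrays share. Here too limma called 0 of 45037 probe sets (0%, with 0.0643 as the smallest adjusted p and 4.04% at an unadjusted p under 0.05), and 0 of the 9 genes (adjusted p 0.9999 each). Differences were below 0 for 8 of 9 genes and above 0 for Ltf (0.33 ± 0.27), with a median of -0.44, where 45.7% of all genes were above 0. Mmp8 was the 1 gene whose groups did not overlap (-0.76 ± 0.37, interval -1.62 to 0.11, unadjusted p 0.0778), beside 9.60% of all probe sets in either direction and 5.00% in the same one. S100a8 differed by -0.54 ± 0.81 and S100a9 by -0.44 ± 0.77. Without Insulin replicate 3, those values were -0.064 for S100a8 and 0.036 in place of -0.77 for Cxcr2, and the median was -0.066. Without untreated replicate 2 the differences were the same, with an SE of 0.66 for S100a8, 0.41 for S100a9 and 0.27 for Mmp8 (adjusted p 0.9999 each). The SE was also smaller for Ngp and Camp, and larger for Ltf, Mpo, Elane and Cxcr2. Over the 3 groups together, limma's moderated F test called 0 of 45037 probe sets (0%; 4.40% at an unadjusted p under 0.05), and the smallest unadjusted p of a member was 0.113, for Mmp8.

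**Figure D3:**
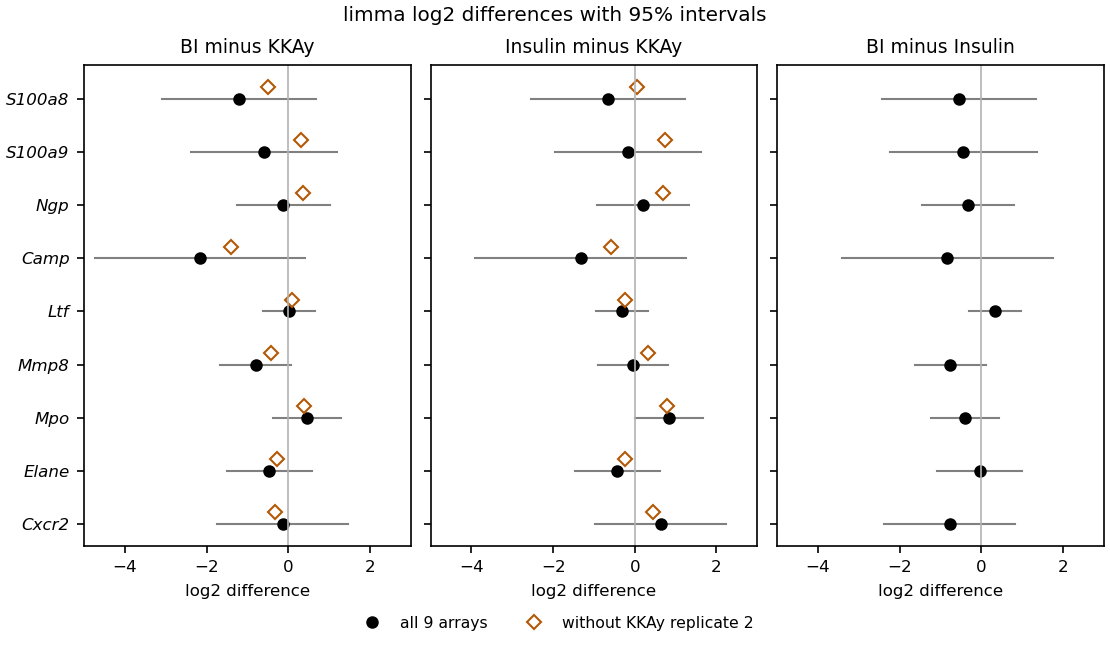
limma log2 differences of the 9 genes (rows) in the 3 comparisons (panels), with 95% intervals (lines) and, as open diamonds, the difference without untreated (KKAy) replicate 2. The intervals cross 0 except that of Mpo in Insulin minus KKAy (0.014 to 1.68), and the diamond of S100a9 lies on the other side of 0 in both comparisons with untreated mice.

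Related genes were read from 16 further lists of neutrophil stages, blood cell types, proliferation and hepatocytes. They held 180 other genes, of which 150 were measured, and 0 of 150 passed the threshold in any of the 3 comparisons (smallest adjusted p 0.522). An unadjusted p under 0.05 was given to 20 of 450 tests (4.44%), beside 4.04% to 4.48% of all probe sets. Array scores were taken as the mean, over a list without the 9 genes, of each gene's level minus its own mean over the 9 arrays. Most genes named from a list were picked for a small F-test p over the groups, so gaps between groups in them follow from that choice. Among all probe sets, 9.19% to 9.60% had groups that did not overlap in a comparison.

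The other azurophil genes had their highest score on untreated replicate 2 (0.77, against -1.02 to 0.55 on the other 8 arrays), with 2 of 6 measured genes highest there. Their 2 smallest p values over the groups were those of Ctsg, the protease cathepsin G, and Serpinb1a, an inhibitor of such proteases. Ctsg had 2.31, 5.13 and 2.18 on BI arrays, 5.01, 5.54 and 6.04 on Insulin arrays and 4.13, 5.04 and 5.25 on untreated arrays. Serpinb1a had 7.64, 8.62 and 8.12 on BI arrays, 4.97, 7.99 and 6.56 on Insulin arrays and 5.40, 7.18 and 5.29 on untreated arrays. Prtn3, chosen after its values were seen as the neighbour of Elane, was at 11.39 on untreated replicate 2 and between 7.81 and 10.50 elsewhere.

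For the specific and gelatinase granule genes other than the members, score and count differed. Their score on untreated replicate 2 was 0.12, inside the range of the others (-0.31 to 0.46), while 6 of 14 genes were highest there, against 13.2% of all genes. The 6 were Lcn2, Chil3, Itgb2, Cybb, Cyba and Orm1. Orm1 lay between 15.14 and 15.59, near the hepatocyte gene Alb (15.15 to 15.45), and Lcn2 between 13.58 and 15.24. Which cells these transcripts came from was not tested. Cd177, a surface glycoprotein of neutrophils, had 4.71, 3.20 and 3.38 on BI arrays, 1.66, 1.69 and 1.64 on Insulin arrays, and 2.31, 2.67 and 1.95 on untreated arrays. All BI arrays were above all others, with a difference of 2.10 ± 0.40 from Insulin (adjusted p 0.575) and of 1.46 ± 0.40 from untreated mice (adjusted p 0.890), at a level far below the array median. Mmp9, the gelatinase of the tertiary granules, had 5.69, 6.49 and 6.67 on BI arrays, 6.56, 7.26 and 7.62 on Insulin arrays and 5.79, 6.27 and 3.32 on untreated arrays.

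Cytosolic and late neutrophil genes scored 0.77 on untreated replicate 2, against -0.83 to 0.44 on the other arrays, with 4 of 11 genes highest there. Anxa1, an anti-inflammatory phospholipid-binding protein, lay between 8.94 and 9.92 on all arrays, and Slpi, a secreted inhibitor of leukocyte proteases, between 7.19 and 9.49. Neither was highest on that array. Neutrophil surface receptors scored 0.18 there, while Insulin replicate 3, the array where Cxcr2 was high, had the highest receptor score (0.64). Fpr2, a formyl peptide receptor, was at 8.60 and highest on that same Insulin array, and C5ar1, the receptor of complement C5a, was highest on Insulin replicate 2 (6.09).

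Chemoattractants and growth factors scored 0.90 on untreated replicate 2, against -0.59 to 0.51 elsewhere, with 7 of 12 measured genes highest on it. Cxcl2, a ligand of Cxcr2, had 6.32, 5.27 and 6.13 on BI arrays, 5.90, 6.40 and 5.63 on Insulin arrays, and 6.89, 8.17 and 6.93 on untreated arrays. All untreated arrays were above all BI and Insulin arrays. The differences from untreated mice were -1.42 ± 0.44 for BI and -1.35 ± 0.44 for Insulin, neither past the threshold (adjusted p 0.999 and 0.9999). Pf4, a platelet chemokine, was at 9.38 on untreated replicate 2 and 8.05 to 9.05 elsewhere. Cxcl1, the other main ligand of Cxcr2 and named after its values were seen, was at 14.90 on untreated replicate 2 and between 11.33 and 14.43 elsewhere. Among granulocyte transcription factors (score 0.48, against -0.63 to 0.51), Cebpb, a C/EBP factor of stress and late granulopoiesis, lay between 12.90 and 13.81. Gfi1, a repressor needed for neutrophil development, lay between 0 on BI replicate 1 and 4.69.

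Of the lists for other cells, those of monocytes, platelets and dividing cells also had their highest score on untreated replicate 2. The monocyte score was 0.77 there, against -0.38 to 0.38 on the other arrays, with 4 of 10 measured genes highest on it and none at 0. Their linear signals summed to 5650 to 9499 on BI arrays, 5835 to 9848 on Insulin arrays and 5382 to 13391 on untreated arrays. Csf1r, the brightest of them by mean, lay between 12.01 and 12.93 and weighs most on these sums. Of the 10 genes, 5 were above the lowest array median on all arrays and 1 was below it on all. Cd14, the lipopolysaccharide co-receptor, had 7.49, 7.48 and 7.25 on BI arrays, 7.87, 8.78 and 9.86 on Insulin arrays, and 8.32, 12.03 and 8.81 on untreated arrays, so the highest array was the same as for S100a8. Ccr2, the chemokine receptor of classical monocytes, lay between 6.05 and 6.77 and was highest there too.

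Proliferation genes scored 1.57 on untreated replicate 2, against -0.43 to 0.11 elsewhere, and 8 of 9 measured genes were highest on it, none being at 0 on any array. Their summed linear signal was 801 to 1159 on BI arrays, 934 to 1206 on Insulin arrays and 728 to 2158 on untreated arrays. Many values were low: 1 of the 9 genes was above the lowest array median on all arrays, and 2 were below it on all. Mki67, the proliferation antigen Ki-67, was at 7.88 on untreated replicate 2 and between 3.03 and 6.34 on the others. Bub1, which had the smallest F-test p of this list (unadjusted p 0.044), was the gene not highest on that array. It was at 3.39 there and highest on untreated replicate 1 (5.23), with 0.39 as its lowest value. Platelet genes scored 0.42 on untreated replicate 2, against -0.67 to 0.38 elsewhere. On it 3 of 9 measured genes were highest (Pf4, Ppbp and Gp9), and none was at 0. Pf4 and Ppbp are also in the list of chemoattractants, so the scores of these lists share genes. A platelet score without Pf4 and Ppbp was not taken. The platelet genes had a summed linear signal of 1356 to 1880 on BI arrays, 1600 to 2069 on Insulin arrays and 1361 to 2456 on untreated arrays. Of these 9 genes, 5 were above the lowest array median on all arrays and 1 was below it on all. Kupffer cell markers (0.12, with -0.54 to 0.35 elsewhere) and hepatocyte genes (-0.04, with -0.22 to 0.25 elsewhere) were inside the range of the other arrays. The part of monocyte, platelet and dividing-cell transcripts in the neutrophil gene values was not tested.

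**Figure D4:**
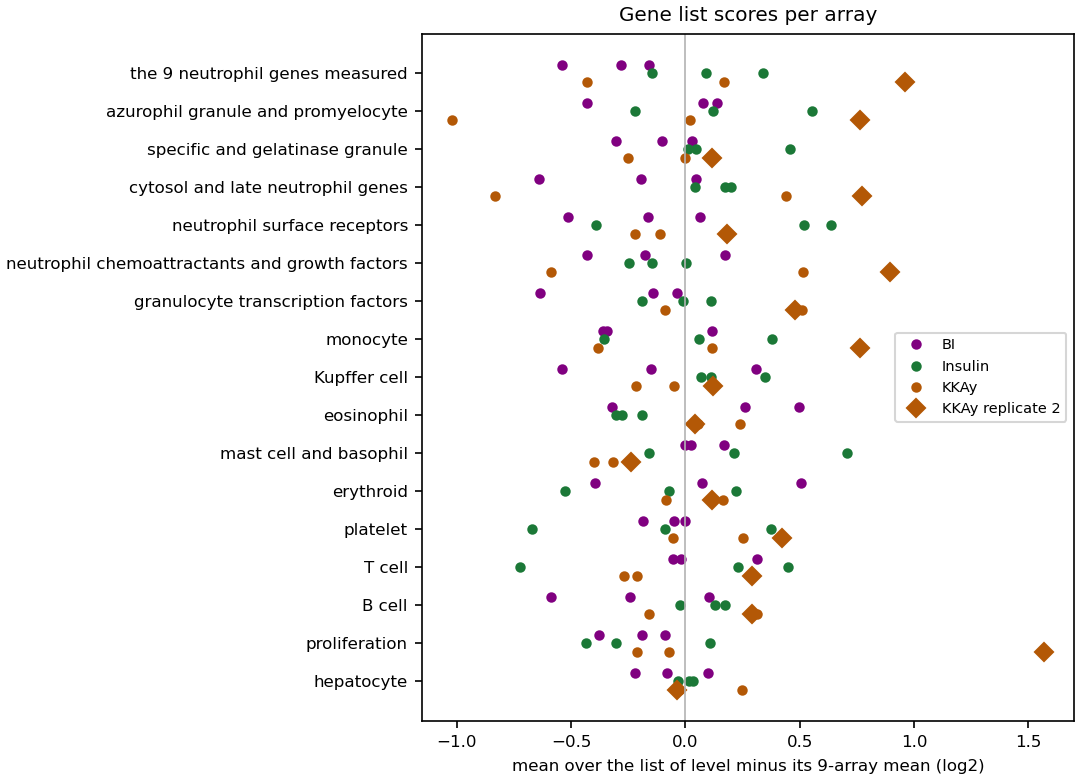
Mean centred level (log2, horizontal axis) of the 9 neutrophil genes and of 16 other gene lists (rows) on each array, coloured by group, with untreated (KKAy) replicate 2 as a diamond. The diamond is far right of the other arrays for proliferation genes (1.57) and for the 9 neutrophil genes (0.96). It is also rightmost for chemoattractants (0.90), azurophil genes (0.77), cytosolic and late neutrophil genes (0.77), monocytes (0.77) and platelets (0.42). For the remaining lists it is inside the range of the other arrays. Among these are specific and gelatinase granule genes (0.12), neutrophil surface receptors (0.18), Kupffer cell (0.12) and hepatocyte genes (-0.04).

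The genes whose levels followed those of S100a8 most closely over the 9 arrays were found among 6872 other genes with a range of at least 1.75 log2 units, 0.5 times that of S100a8. Likeness was the root mean square difference of levels, each centred on its mean, and is a description of 9 arrays that 1 extreme array shapes. The nearest 5 were Shcbp1 (0.42), a protein that binds the adaptor Shc, Ier5 (0.42), an immediate early gene, H3c11 (0.42), a replication-dependent histone, Saa3 (0.44), an inducible serum amyloid A of mice, and D17H6S56E-5 (0.48). S100a9 was at 0.55, with 17 genes closer to S100a8 than its partner. Of the other members with a range that large, Mmp8 was at 0.80, Elane at 0.86, Ngp at 0.90, Cxcr2 at 1.22 and Camp at 1.43. All 5 nearest genes had their highest value on untreated replicate 2, for example 14.27 for Saa3, against 10.16 to 12.14 on the other arrays, and 7.81 for Shcbp1, against 3.95 to 6.11. Choosing genes for likeness to S100a8, which peaks on that array, largely fixes this shared peak. On the other arrays Shcbp1 was below the lowest array median.

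**Figure D5:**
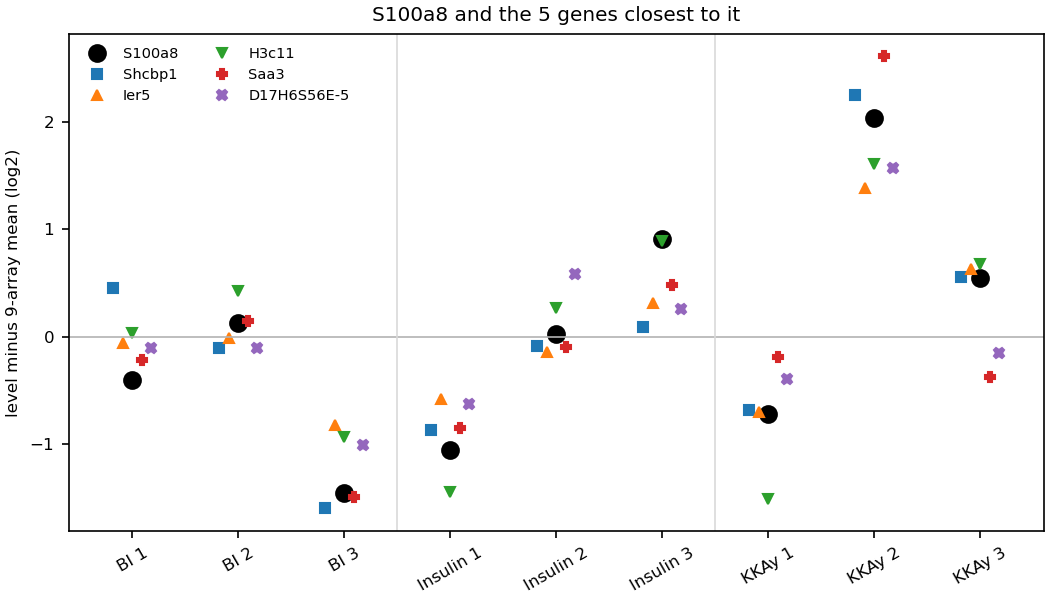
Levels centred on each gene's mean over the 9 arrays (log2, vertical axis) on every array (horizontal axis) as 1 point per array for S100a8 (large dots) and the 5 genes nearest to it (1 symbol each). Root mean square differences from S100a8 are 0.42 to 0.48, and all 6 genes are highest on untreated (KKAy) replicate 2.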

How the data were processed

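Total liver RNA (TRIzol, then RNeasy) was made into biotin-labelled cRNA, per the labels' protocols. Each probe set has 1 value per array, a log2 signal that the authors computed and deposited, with software not given in the sources used here. On each array the linear signal had a 2% trimmed mean of 500.004 and 152 to 247 probe sets were at exactly 0, so values were taken as scaled already and were used as deposited.

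The file held 45101 probe sets, of which 64 controls were left out. Names came from the platform annotation: 34945 probe sets had 1 symbol, 932 had several and 9160 had none. The probe set of highest mean stands for its gene. Promoter sequences are those of RefSeq on GRCm38.p6.

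All 9 arrays entered one limma fit (version 3.58.1 in R 4.3.3) by lmFit and eBayes, with no trend, group as the factor and 6 residual degrees of freedom. Two-sided p-values were adjusted by Benjamini-Hochberg over 45037 probe sets (threshold 0.05). Precision is limited by the number of arrays: over all probe sets tested, 95% intervals of log2 differences had a median half-width of 0.95. The tests were tried on simulated data. The members and lists were chosen with earlier results of these data known, so medians and counts of members are descriptions. By the rule for named genes, a further list gives the genes that passed or else the 2 with the smallest F-test p. These 2 genes are not named for the Kupffer cell, hepatocyte, T cell, eosinophil and erythroid lists. For cell types, ranges are given. Other exceptions are marked in the text. Alternatives were equal array medians, quantile normalization, a floor at 6, leaving out dim probe sets (mean level under 6.04), a trend with robust fitting, array weights, the replicate number as a block, fits of the 2 groups compared, averaging the probe sets of a gene, requiring at least 2-fold and leaving out each array in turn. Replicate numbers were checked for pairing: deviations of same-numbered arrays correlated at -0.159 to 0.147.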

Additional observations from a re-analysis of the deposited data

How the results depend on the processing

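No neutrophil gene passed the threshold under any setting (smallest adjusted p 0.714, for Camp in BI minus KKAy without untreated replicate 1). Of 226 member differences under settings other than leaving out single arrays, 4 changed sign, each near 0 or at the floor. Ltf in BI minus KKAy was -0.023 with quantile normalization, -0.022 with equal array medians and -0.0014 with a floor at 6, and Elane in BI minus Insulin was 0.23 with the floor. With that floor, both groups lay at the floor for Cxcr2 in all 3 comparisons, Camp in BI minus Insulin and Mpo in BI minus KKAy, which gave no value, and the filter on dim probe sets kept 5 of the 9 genes. The 5 probe sets called in BI minus KKAy became 1 with the filter and 0 with the floor, with fits of only the 2 groups and with the replicate number as a block, and 0 to 2 when an array was left out. In BI minus Insulin, 1 probe set was called with the filter and 0 to 1 when an array was left out.

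Replicate numbers were not taken as pairs, since same-numbered arrays did not deviate together. The replicate block left the member medians at -0.16 in Insulin minus KKAy, -0.47 in BI minus KKAy and -0.44 in BI minus Insulin, with 0 probe sets called in each.

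Leaving out 1 array turned the sign of 13 differences. In Insulin minus KKAy the median of the members ran from -0.46 (without untreated replicate 1) to 0.33 (without untreated replicate 2), S100a8 from -1.34 to 0.048, S100a9 from -0.70 to 0.75, Ngp from -0.32 to 0.68, Mmp8 from -0.26 to 0.33 and Cxcr2 from -0.18 to 1.23. In BI minus KKAy, S100a9 ran from -1.14 to 0.31, Ngp from -0.65 to 0.36, Ltf from -0.18 to 0.14, Cxcr2 from -0.33 to 0.14 and Elane from -0.77 to 0.042. In BI minus Insulin, Camp ran from -1.44 to 0.11, Elane from -0.34 to 0.47 and Cxcr2 from -1.37 to 0.036. Without background measures, depth of signal limits Camp, Cxcr2 and Mpo most, which lay below the lowest array median on 8, 9 and 8 arrays. The cause of these shifts was not tested.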

Other observations

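Other genes were also far higher on untreated replicate 2 than on any other array. They were picked with their values in view. Reg3g, an antimicrobial C-type lectin, was at 13.18 there and at 1.52 to 3.85 on the other 8 arrays. Reg3b, of the same family, was at 15.35 there and at 5.38 to 10.55 elsewhere. Chil1, a chitinase-like protein, was at 9.20 against at most 5.96, and Ubd, a ubiquitin-like modifier, at 9.03 against at most 6.58. Cdc20, an activator of the anaphase-promoting complex, was at 9.54 against at most 7.27. These are values of 1 array, with no test.

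Markers of other blood cells gave no value past the threshold. Jchain, the joining chain of secreted antibodies, was at 9.35 on untreated replicate 2 and between 7.62 and 9.16 elsewhere, and Gp5, a platelet glycoprotein, at 6.50 and between 5.53 and 6.76. Ms4a1, of the B cell list like Jchain, was at 5.93 on untreated replicate 2 and highest on Insulin replicate 3 (6.30). Fcer1a, a chain of the immunoglobulin E receptor, had 3.64, 4.66 and 4.15 on BI arrays, 3.45, 3.97 and 1.67 on Insulin arrays, and 0.71, 0 and 0.92 on untreated arrays. All 3 untreated arrays were below all 6 BI and Insulin arrays. The limma differences from untreated mice were 3.61 ± 0.60 for BI (adjusted p 0.522, the smallest of the lists) and 2.49 ± 0.60 for Insulin (adjusted p 0.889). These levels are far below the array median. Cma1, of the mast cell and basophil list like Fcer1a, was at 4.27 on untreated replicate 2 and highest on Insulin replicate 3 (6.22).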
